A study of Mus musculus with 10 samples.

Results

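The genes followed here are those of the hypoxia response and of glycolysis in embryonic mouse limb buds. They were taken from a list of 34 symbols, and a gene was kept where at least 1 probe set of the array was annotated to that symbol alone. This gave 32 of the 34 genes, out of 18194 genes with such a probe set, each read by the probe set with the highest mean log2 signal over all 10 arrays. Bnip3l was left out because its probe sets also carry the name of a pseudogene, and Eno1 was not analysed here. The members were chosen by their known roles and on signals of these same arrays, since 1 array (wild type 5) was known to stand apart in such genes, and it is reported apart from the rest. What wild type 5 shows is therefore given as a description, without a test, and the tests between genotypes leave it out.

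The series compared limb buds with and without Dicer, the RNase that makes mature microRNAs. One parent carried a heterozygous floxed Dicer allele together with prxcre, a Cre transgene active in limb mesenchyme, and the other was homozygous for the floxed allele. The array samples are 5 labelled wild type and 5 labelled mutant, numbered 1 to 5 in each group. Every embryo of this cross inherits at least 1 floxed allele, and whether Cre-carrying heterozygotes are among the samples labelled wild type could not be learned from the labels. Embryo age, fore- or hindlimb origin and the number of embryos per sample are likewise unstated there, so p-values measure only the spread between these samples, which may be technical. Ectoderm, blood, vessel and muscle precursor cells of the bud lie outside the lineage in which this Cre acts.

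Cells short of oxygen stabilise the transcription factor HIF-1, whose alpha subunit is encoded by Hif1a. With oxygen, prolyl hydroxylases mark that subunit for destruction, so the control acts mainly on the protein and not on the mRNA. HIF-1 binds a short core sequence, ACGTG or GCGTG, in its target genes and raises glucose uptake, nearly every enzyme of glycolysis, lactate output, angiogenic factors and proteins that spare mitochondria. Growing limb buds rely strongly on glycolysis, and their avascular cartilage condensations are a known site of HIF-1 activity.

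The HIF core sequence was looked for in the RefSeq promoters of the members (assembly GRCm38.p6, 250 bases before to 50 after the start), since these genes stood high together in wild type 5. The motifs ACGTG and GCGTG were searched on both strands, and a palindromic CACGTG, which reads ACGTG on each strand, counts as 2 overlapping matches. Of the members, 30 had a promoter in the table and 29 of these (96.7%) held at least 1 match in any of their promoters, against 46.7% of all 27025 genes. At least 2 matches stood in 22 of the 30 (73.3%), against 22.9% of all genes. The members were chosen by their known roles, and known HIF-1 targets are among them, so a high share could come from that choice alone. These shares describe the list, and the part of HIF-1 in the signals of wild type 5 was not tested. Member promoters were also richer in G and C, with a median of 64.8% against 52.7% over all promoters, and the part of base composition in these shares was not tested. The stretches below belong to the 6 members with a match before their first start that stood highest in wild type 5. Each is the 100 bases, within the 250 before the start, that hold the most matches, 5′ to 3′ on the gene's strand, with the matches in capitals.
Bnip3, chr7:138909524-138909623 (- strand): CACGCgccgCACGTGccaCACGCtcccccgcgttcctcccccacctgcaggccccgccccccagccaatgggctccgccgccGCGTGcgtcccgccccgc
Hk2, chr6:82774455-82774554 (- strand): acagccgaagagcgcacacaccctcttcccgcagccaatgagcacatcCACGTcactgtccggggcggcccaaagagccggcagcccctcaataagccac
Ankrd37, chr8:45999992-46000091 (- strand): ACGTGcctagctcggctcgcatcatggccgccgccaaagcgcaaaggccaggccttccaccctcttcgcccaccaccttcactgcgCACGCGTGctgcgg
Slc2a1, chr4:119108645-119108744 (+ strand): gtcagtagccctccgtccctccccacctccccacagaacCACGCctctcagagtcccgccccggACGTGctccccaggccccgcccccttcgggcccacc
Adm, chr7:110627557-110627656 (+ strand): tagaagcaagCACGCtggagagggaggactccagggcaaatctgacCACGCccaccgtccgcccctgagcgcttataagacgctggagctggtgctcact
Pdk1, chr2:71873124-71873223 (+ strand): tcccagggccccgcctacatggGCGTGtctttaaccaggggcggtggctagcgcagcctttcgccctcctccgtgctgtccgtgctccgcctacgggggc

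The Bnip3 stretch holds 5 matches, 2 of them in a single CACGTG, and that of Ankrd37 holds 3, 2 of which overlap in CACGCGTG. Slc2a1 and Adm have 2 each, and Hk2 and Pdk1 1 each. The number of matches did not order the members: the promoters of Ldha held up to 7 and that of Hif1a 3, although both stood closer to the other arrays than Bnip3 did, and Tpi1, the gene without a match, was high in wild type 5 as well. A match is a sequence description and does not show binding.

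Wild type 5 stood apart outside the hypoxia and glycolysis genes too. The control probe sets for 18S ribosomal RNA were high there, at 2270 for the 3′ and 1294 for the middle probe set against 317 to 450 and 175 to 226 in the other 9 arrays, while the 5′ probe set was also high in Dicer mutant 1 (2008 in wild type 5, 1874 in Dicer mutant 1). The 3′ to 5′ signal ratio, which goes up as RNA degrades, was 1.51 for beta-actin against 1.19 to 1.35, and 1.03 for Gapdh against 0.919 to 0.975. The stress-induced heat shock genes Hspa1a and Hspa1b had 1787 against 34.6 to 50.2 and 6404 against 103 to 152, differences of 5.35 and 5.57 log2 units that are larger than that of any member at its brightest probe set, and no other of the 9 heat shock genes differed by 1 unit. The part of handling, RNA quality or labelling in the high member signals was not tested. The median signal was 152 in wild type 5 and 146 to 153 in the others, and Dicer1 went with the label in wild type 5, with 706 against 205 to 425 elsewhere. The pair numbered 2 ran opposite to its labels for Dicer1: the library labelled wild type 2 had 233 and the library labelled Dicer mutant 2 had 360, where the other mutant arrays had 205 to 226.

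Wild type 5 had the highest signal of all 10 arrays for 28 of the 32 members, where 18.1% of all 45037 probe sets other than controls had their highest signal there. Against the median of wild type 1 to 4, 20 members stood at least 1 log2 unit higher (2-fold), and 7 at least 2 log2 units (4-fold). None stood 1 unit lower. Over all these probe sets the shares were 0.568% at least 1 unit higher and 0.546% at least 1 unit lower. The median difference was 1.18 log2 units (2.27-fold) over the members and 0.011 over all probe sets. In 24 members the difference of wild type 5 exceeded the whole range of the other 9 arrays, whose median was 0.53 log2 units. The share of all probe sets for which this held was not computed. Of the 31 members not read by a control probe set, 21 were among the 450 probe sets (1%) with the largest positive difference.

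**Figure D1:**
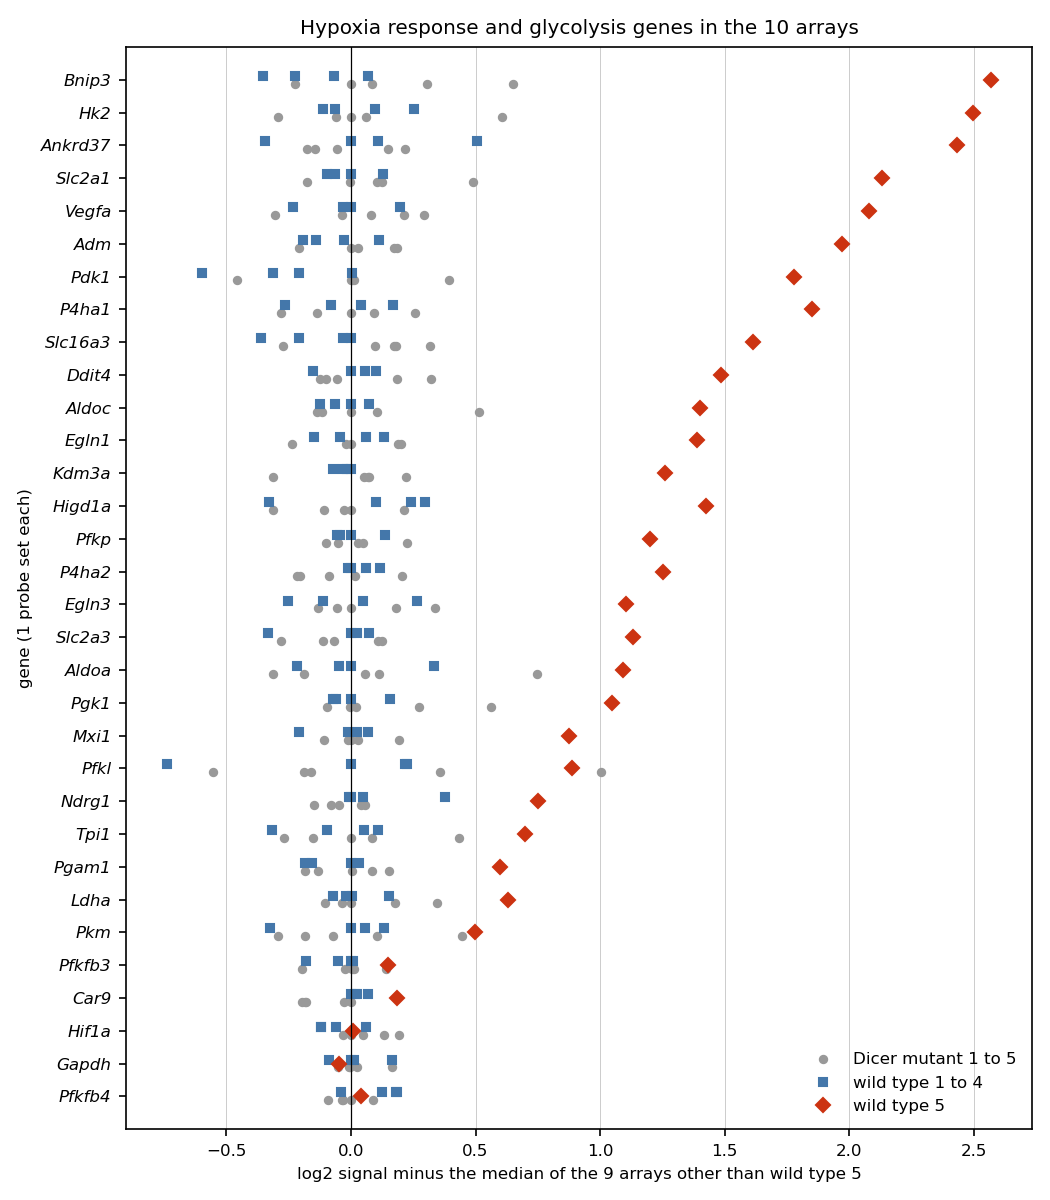
Log2 signal of each of the 32 members in each array, minus the median of the 9 arrays other than wild type 5; genes are ordered by the difference between wild type 5 and the median of wild type 1 to 4. Wild type 5 (diamonds) is highest in 28 members and stands up to 2.71 log2 units above the median of the other wild type arrays (squares), for Bnip3, while the mutant arrays (circles) overlap the other wild type arrays.

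Both glucose transporters stood high in wild type 5. Slc2a1, which encodes the transporter GLUT1, had signals of 1063, 1137, 1087 and 1244 in wild type 1 to 4, 4984 in wild type 5, and 1006, 1135, 1239, 1221 and 1596 in Dicer mutant 1 to 5. Its difference from the median of wild type 1 to 4 was 2.16 log2 units, or 4.48-fold, and the 9 other arrays overlapped, with Dicer mutant 5 the highest of them. Its 3 probe sets showed differences of 2.16, 2.27 and 2.00 log2 units. Slc2a3, the gene of GLUT3, had 3934 in wild type 5 against 1425 to 1956 in the other 9 arrays (1.12 log2 units). At its other probe sets the differences were 1.16, 0.63 and 0.36 log2 units. In the last of these wild type 5 (226.7) lay below wild type 2 (243.5).

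At their brightest probe sets, Hk2, Aldoc and Pfkp stood furthest out among the glycolytic enzymes. Hk2, which encodes hexokinase 2 and traps glucose as glucose-6-phosphate, had 501, 448, 433 and 558 in wild type 1 to 4, 2642 in wild type 5, and 468, 382, 449, 488 and 714 in Dicer mutant 1 to 5. That is 2.48 log2 units, or 5.57-fold, and again Dicer mutant 5 was second. Aldoc, an aldolase isoform, had 263 in wild type 5 against 90.4 to 142 in the other 9 arrays (1.44 log2 units), and Pfkp, a phosphofructokinase isoform, 389.5 in wild type 5 against 158 to 198 in the other 9 arrays (1.22). The mean of Aldoc over the arrays lay below the signal of 151 used as a filter in the tests, at an unknown distance from background. At its other, dimmer probe set Aldoc differed by only 0.27 log2 units, and wild type 5 (103.5) lay below Dicer mutant 5 (105.9).

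The other enzymes differed by less on the log2 scale. Aldoa, the main aldolase of most embryonic tissues, stood at 5392 in wild type 5 against 2037 to 4246 in the other 9 arrays (1.12 log2 units), and Pgk1, phosphoglycerate kinase, at 7875 in wild type 5 against 3564 to 5623 in the other 9 arrays (1.08). Tpi1, triosephosphate isomerase, had 5530.3 in wild type 5 against 2733 to 4607 in the other 9 arrays (0.72). Pgam1, phosphoglycerate mutase, had 5471 in wild type 5 against 3182 to 4016 in the other 9 arrays (0.67). Pkm, pyruvate kinase, had 5185 in wild type 5 against 2930.2 to 5002 in the other 9 arrays (0.47), so its margin over Dicer mutant 3 was small. Pfkl, the liver-type phosphofructokinase, had 1648 in wild type 5 against 534 to 1782 in the other 9 arrays, and here Dicer mutant 3 was above wild type 5. The brightest probe sets of Aldoa and Tpi1 carry the x_at suffix and those of Slc2a3 and Ndrg1 the s_at suffix, which the maker of the arrays gives to probe sets that can bind related transcripts, so their values may include other genes.

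Gapdh, glyceraldehyde-3-phosphate dehydrogenase, had 9486, 10518, 9395 and 8848 in wild type 1 to 4, 9095 in wild type 5, and 9549.9, 9051, 10541, 9341 and 9370.5 in Dicer mutant 1 to 5. Wild type 5 lay inside the range of the other arrays at all 3 of its probe sets. These are the maker's control probe sets, left out of the tests, and the other probe sets of the gene also carry pseudogene names. The signals were high on the scale, which ended between 13260 and 14190 in the 10 arrays, and how far the scale is compressed there is not known.

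At the end of the pathway, Pdk1 encodes a kinase that holds back the oxidation of pyruvate in mitochondria. Ldha encodes the lactate dehydrogenase subunit that turns pyruvate into lactate, and Slc16a3 the lactate exporter MCT4. Pdk1 had 423, 454, 347 and 526 in wild type 1 to 4, 1801 in wild type 5, and 383, 526, 525, 530.1 and 689.6 in Dicer mutant 1 to 5, a difference of 2.04 log2 units, or 4.11-fold. Ldha had 6596, 5644, 5842 and 5943 in wild type 1 to 4, 9172 in wild type 5, and 5926, 5516, 7533, 5782 and 6705 in Dicer mutant 1 to 5, which is 0.64 log2 units, or 1.56-fold. Slc16a3 had 93.8, 95.9, 74.6 and 83.0 in wild type 1 to 4, 294 in wild type 5, and 108, 79.3, 109, 102 and 119.6 in Dicer mutant 1 to 5, a difference of 1.74 log2 units, or 3.33-fold, from a level under the filter. Dicer mutant 5 was the highest of the other 9 arrays for Pdk1 and Slc16a3, and Dicer mutant 3 for Ldha.

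**Figure D2:**
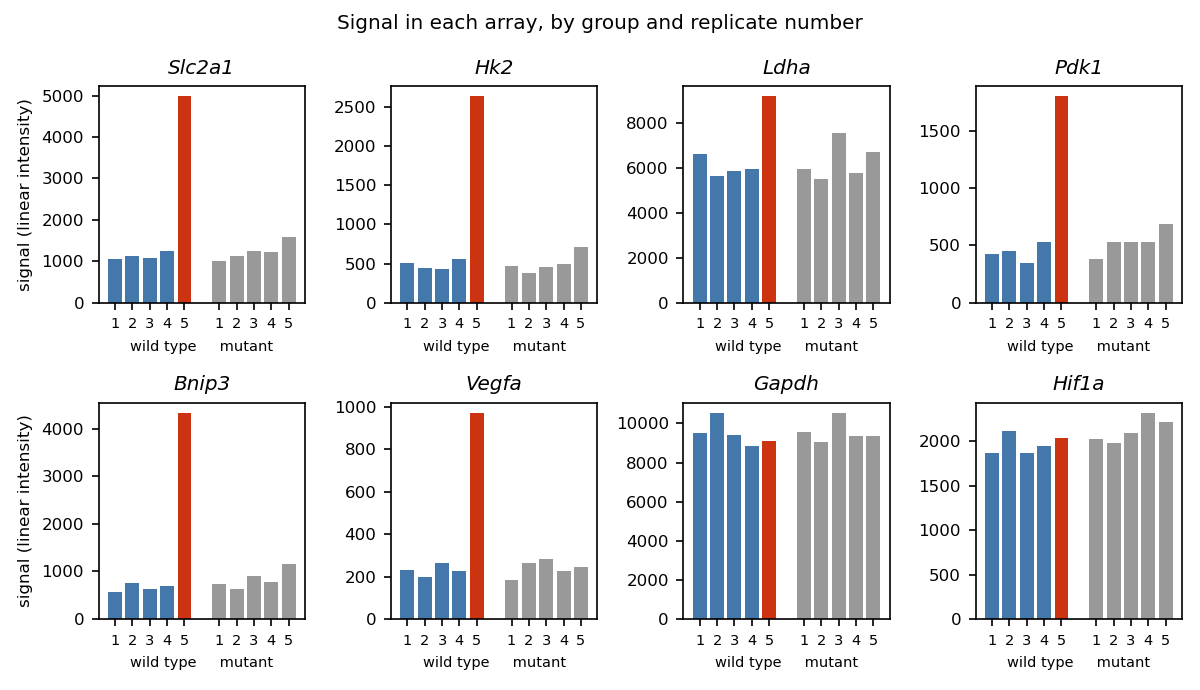
Signal (linear intensity, axis from 0) of 8 members in each array; blue bars are wild type 1 to 4, the red bar wild type 5 and grey bars Dicer mutant 1 to 5. Slc2a1, Hk2, Pdk1, Bnip3 and Vegfa stand far above the other arrays in wild type 5, Ldha stands less far above (9172 against 5516 to 7533), and Gapdh and Hif1a lie within the range of the others.

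Bnip3, a mitochondrial protein that marks mitochondria for autophagy, had the largest difference of all members when each is read at its brightest probe set. Its signals were 572, 766, 626 and 696 in wild type 1 to 4, 4333 in wild type 5, and 730.3, 625, 903, 775 and 1147 in Dicer mutant 1 to 5, a difference of 2.71 log2 units, or 6.57-fold. Dicer mutant 5 was again second, at 1147, above every other array but wild type 5. Higd1a, a hypoxia-induced protein of the respiratory chain, had 3024 in wild type 5 against 896 to 1384 in the other 9 arrays (1.25 log2 units).

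The HIF subunit gene and its feedback genes differed. Hif1a itself had 1864, 2116, 1867 and 1945 in wild type 1 to 4, 2038 in wild type 5, and 2028, 1982, 2094, 2318 and 2220.1 in Dicer mutant 1 to 5, so wild type 5 lay within the range of the others at 0.097 log2 units above the other wild type arrays, and at all 4 of its probe sets it was not the highest array. Egln1 and Egln3, which encode the oxygen-sensing prolyl hydroxylases and are themselves HIF targets, stood high. Egln1 had 1728 in wild type 5 against 560.0 to 759 in the other 9 arrays (1.38) and Egln3 had 290.4 in wild type 5 against 113 to 171 in the other 9 arrays (1.14). At its other, dimmer probe set Egln3 had 491 against 69.1 to 119, a difference of 2.70.

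Secreted and matrix genes of the response stood high except Car9. Vegfa, the growth factor of blood vessels, had 229.8, 196, 264 and 225 in wild type 1 to 4, 971 in wild type 5, and 186, 266, 281, 224 and 243 in Dicer mutant 1 to 5, a difference of 2.10 log2 units, or 4.27-fold. Adm, the vasodilator peptide adrenomedullin, had 97.0, 93.5, 105 and 116 in wild type 1 to 4, 419 in wild type 5, and 122, 92.7, 120.5, 107 and 109 in Dicer mutant 1 to 5, a difference of 2.05 log2 units, or 4.15-fold, from a level under the filter. P4ha1 and P4ha2 encode the collagen prolyl hydroxylases that stabilise the collagen triple helix. P4ha1 had 445, 392, 529 and 485 in wild type 1 to 4, 1698 in wild type 5, and 428, 502, 388, 471 and 562 in Dicer mutant 1 to 5, a difference of 1.87 log2 units, or 3.66-fold, and P4ha2 had 749 in wild type 5 against 270.0 to 363 in the other 9 arrays (1.22 log2 units). Car9, a carbonic anhydrase often used as a hypoxia marker, had 102 in wild type 5 against 78.7 to 94.6 in the other 9 arrays, a difference of 0.16 at a level under the filter in every array.

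Genes that restrain growth or act in the nucleus followed the same direction. Ddit4, an inhibitor of the mTORC1 growth pathway, had 826, 885, 858 and 743 in wild type 1 to 4, 2311 in wild type 5, and 1030.0, 771, 938, 793 and 756 in Dicer mutant 1 to 5, a difference of 1.46 log2 units, or 2.75-fold. Ankrd37, an ankyrin-repeat gene strongly induced by HIF-1, had 116, 91.3, 125 and 165 in wild type 1 to 4, 627 in wild type 5, and 103, 135, 105, 112 and 129 in Dicer mutant 1 to 5, a difference of 2.38 log2 units, or 5.20-fold, under the filter. Kdm3a, a histone demethylase, had 2899 in wild type 5 against 976 to 1412 in the other 9 arrays (1.28), and Mxi1, an antagonist of MYC, 1157 in wild type 5 against 546 to 721 in the other 9 arrays (0.87). Ndrg1, a stress-induced gene, had 552 in wild type 5 against 296 to 427 in the other 9 arrays (0.73) at its brightest probe set.

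The choice of probe set set the size for some genes. Of the 20 members with several probe sets, 6 had probe sets whose differences were at least 1 log2 unit apart. Ndrg1 showed the widest spread: its 4 other probe sets had 969.9 against 197 to 226, 1213 against 138 to 159, 1678 against 91.4 to 104 and 242 against 49.7 to 60.7, differences of 2.26, 2.98, 4.08 and 2.13. Pfkfb3, a kinase that makes the phosphofructokinase activator fructose-2,6-bisphosphate, differed by only 0.17 at its brightest probe set but had 1112 against 112 to 151 at the other, a difference of 2.99. Adm had 741 against 52.3 to 72.7 at its other probe set (3.52), and Vegfa 323 against 207 to 256 (0.47). Aldoc had 103.5 against 71.7 to 105.9 at its other probe set (0.27). Pfkfb4, a related kinase with 1 probe set, had 175 in wild type 5 against 159 to 193 in the other 9 arrays (-0.11). By the brightest probe sets it was the member furthest below the other wild type arrays. Counting every probe set, 59 of 71 were highest in wild type 5, and 22 of the 32 genes had at least 1 probe set 1 log2 unit or more above the other wild type arrays.

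Cell type markers differed less in wild type 5 than the members did. Their list medians ran from -0.53 for skeletal muscle to 0.14 for endothelial markers, against 1.18 for the members. The 14 limb mesenchyme markers summed to 16322 in wild type 5, against 15809 to 18653 in the other wild type and 16356 to 19261 in the mutant arrays, with 2128 against 2294 to 2898 in the other 9 for Prrx1, which was thus lowest in wild type 5, and 1929.9 against 1226 to 1944 for Twist1. The 14 skeletal muscle markers summed to 3384, below the other wild type (5349 to 9221) and the mutant arrays (3448 to 11393), and 6 of them stood 1 log2 unit or more lower (Myog, Myh3, Actc1, Tnnt1, Mylpf and Ttn). Dicer mutant 5 had the sum of 3448, so the low muscle signal was shared by both arrays numbered 5. Actc1 had 761 in wild type 5 and 762.5 in Dicer mutant 5, and Mylpf 275.5 and 298. The 12 endothelial markers summed to 3784 against 2999 to 3255 and 2984 to 3166. Of these, 2 stood 1 unit or more higher, the VEGF receptor genes Kdr (736 against 330.4 to 530.5) and Flt1 (348 against 122 to 161), the second of which is itself a known HIF target. Kdr was also higher in the other arrays numbered 4 and 5 (489 to 530.5) than in those numbered 1 to 3 (330.4 to 364). The 13 white blood cell markers summed to 2307 against 2428 to 3593 and 2381 to 2945. The sums of the 14 cartilage (6578), 10 red cell (32636), 11 surface ectoderm (4992) and 8 nerve and Schwann cell markers (1327) lay within the range of the other 9 arrays. No marker was at 0 in any array. In whole limb buds, fewer cells of a type and less RNA per cell cannot be told apart, and the part of cell makeup in the member signals was not tested.

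**Figure D3:**
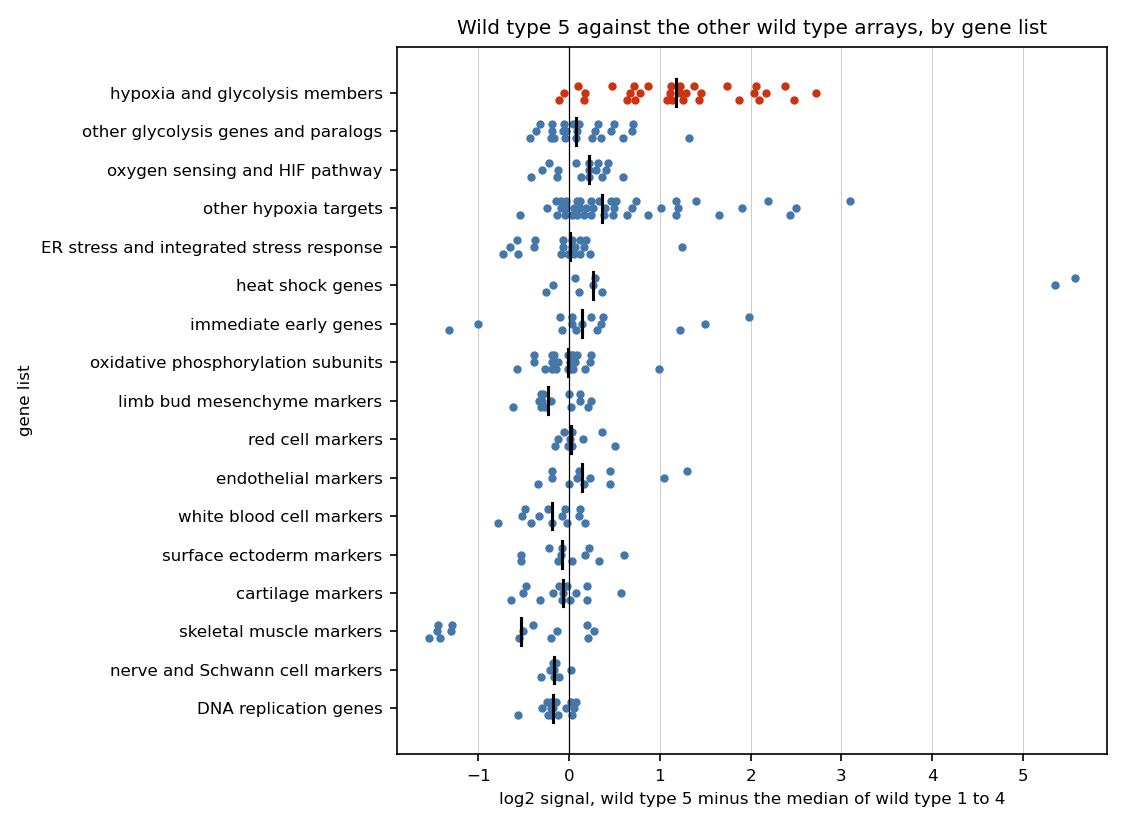
Log2 signal of wild type 5 minus the median of wild type 1 to 4 for each gene (points, 1 probe set per gene) of the members and of 16 other lists; the black bar is the median of the list. The members (median 1.18) lie to the right of the other lists, whose medians run from -0.53 for skeletal muscle markers to 0.36 for other hypoxia targets, and the points beyond 5 are Hspa1a and Hspa1b.

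Related genes outside the members show how far the pattern reached. Of 42 other genes known to respond to hypoxia, 26 were highest in wild type 5 and 11 stood at least 1 log2 unit above the other wild type arrays (median of the list 0.36). They were Ppp1r3c, a glycogen-targeting phosphatase subunit (878 against 58.5 to 113), the transcription factor gene Bhlhe40 (697 against 106 to 158), Tmem45a, Ak4, Ero1a, Nrn1, Plod2, Cxcr4, Selenbp1, Stc1 and Fam162a. Of these, Ppp1r3c, Bhlhe40, Tmem45a, Nrn1, Cxcr4 and Stc1 lay under the filter. Cxcr4 was also higher in the other arrays numbered 4 and 5 (114.5 to 130.2) than in those numbered 1 to 3 (72.1 to 87.0). Tmem45a ran from 70.2 to 285.5 among the other 9 arrays. Of 25 further genes of glycolysis and its branches, 3 of which (Gys1, Gbe1 and Pgm2) are also counted among those 42, 9 were highest in wild type 5 and 1 stood at least 1 unit higher, the phosphoglucomutase gene Pgm1 (769.9 against 284 to 427; median of the list 0.076). Hexokinase 1, from Hk1, had 625 against 354 to 469 (0.59), and Ldhb, the other main lactate dehydrogenase subunit, 1875 against 1876 to 2246 (-0.19). None of 16 oxygen-sensing genes differed by 1 unit, with a median of 0.22, and none of 25 oxidative phosphorylation subunits did, with a median of -0.0074.

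The other 9 arrays also differed among themselves, by less and along other lines. Dicer mutant 3 was the highest of the 9 for 14 of the 32 members, where 12.4% of all tested probe sets were highest there, and these included 9 of the 10 glycolytic enzymes. The exception was Hk2. Pfkl had the largest margin, with 1782 in Dicer mutant 3 against 534 to 1140 in the other 8 arrays. Dicer mutant 5 was the highest of the 9 for 7 members, against 12.3% of all tested probe sets: Slc2a1, Hk2, Pdk1, Slc16a3, Bnip3, P4ha1 and Kdm3a. The median deviation of the members from their median over the 9 arrays was 0.18 log2 units in Dicer mutant 3 and 0.038 in Dicer mutant 5, against 1.17 in wild type 5. Arrays numbered 4 and 5 (without wild type 5) lay below all those numbered 1 to 3 for Slc2a3 and Pfkl (by 0.29 and 0.77 log2 units on average) and above them for Pdk1 and Pfkfb3 (by 0.40 and 0.13), with a median difference of 0.0025 over the members. Pdk1 was nearly tied, with 526.0 in both wild type 4 and Dicer mutant 2. Pfkfb3 had 187.9 in wild type 4 and 187.4 in Dicer mutant 3. The share of all probe sets split this way was not computed, so nothing is read from these genes.

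The question of the series, whether loss of Dicer changes these genes, was tested on the arrays other than wild type 5. With wild type 1 to 4 and Dicer mutant 1 to 5, none of the 25 members past the filter was called by limma at a Benjamini-Hochberg adjusted p below 0.05 (smallest 0.997). None of the 22515 probe sets tested was called either (0%), and 718 of these (3.19%) and 0 of the 25 members had an unadjusted p below 0.05. The median log2 difference, mutant minus wild type, was 0.051 over all 32 members and -0.025 over all tested probe sets. The members ran from -0.15 to 0.31. Without Dicer mutant 3 the median of the members was -0.0016, and without Dicer mutant 2 it was 0.096. The remaining 7 members were not tested: 6 lay under the filter, and Gapdh is read by control probe sets.

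Because the Dicer1 signal of both arrays numbered 2 went against their labels, the comparison was repeated without them, on wild type 1, 3 and 4 and Dicer mutant 1, 3, 4 and 5. Again none of the 25 tested members was called by limma (smallest adjusted p 0.0911, for Pfkfb4), where 745 of 22515 probe sets (3.31%) were. The median over the 32 members was 0.099, and 0.027 without Dicer mutant 3. At an unadjusted p below 0.05 there were 3 members, against 16.3% of all tested probe sets. These were Pfkfb4, with a log2 difference of -0.20 (SE 0.054), Bnip3, with 0.48 (SE 0.16, adjusted p = 0.167), and Hif1a, with 0.19 (SE 0.064, adjusted p = 0.168), all from limma with 3 wild type and 4 mutant arrays. The groups did not overlap for 5 of the 32 members (Bnip3, Kdm3a, Slc16a3, Pfkfb4 and Hif1a), where 16.6% of all tested probe sets had no overlap, so this share was near the background. With all 9 arrays no member had groups without overlap (1.01% of all tested probe sets). Well known HIF targets were not called: Slc2a1 had 0.15 (SE 0.15, adjusted p = 0.742), Ldha 0.076 (SE 0.094, adjusted p = 0.799), Vegfa -0.048 (SE 0.14, adjusted p = 0.931) and Pdk1 0.29 (SE 0.21, adjusted p = 0.584).

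With the replicate number as a block, these 7 arrays gave 3 called members (Bnip3, P4ha2 and Hif1a), where 14.0% of all tested probe sets were called. Dicer mutant 5 has no partner there and adds nothing to the estimate, so this compares 3 arrays with 3. Bnip3 had a blocked log2 difference of 0.35 (SE 0.079, limma adjusted p = 0.0321), Hif1a 0.18 (SE 0.047, adjusted p = 0.0462) and P4ha2 -0.23 (SE 0.057, adjusted p = 0.0411). In signals, Bnip3 had 572, 626 and 696 in wild type 1, 3 and 4 and 730.3, 903 and 775 in Dicer mutant 1, 3 and 4. Hif1a had 1864, 1867 and 1945 against 2028, 2094 and 2318, and P4ha2 had 314, 328 and 340.2 against 272, 270.0 and 296. The mutant array was the higher of each pair for Bnip3 and Hif1a and the lower of each pair for P4ha2. Array weights instead of the block gave 4 called members (Bnip3, Hif1a, Pfkfb4 and Higd1a), where 16.2% of all tested probe sets were called. Both shares of members, 3 and 4 of 25, lay close to those of all probe sets.

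**Figure D4:**
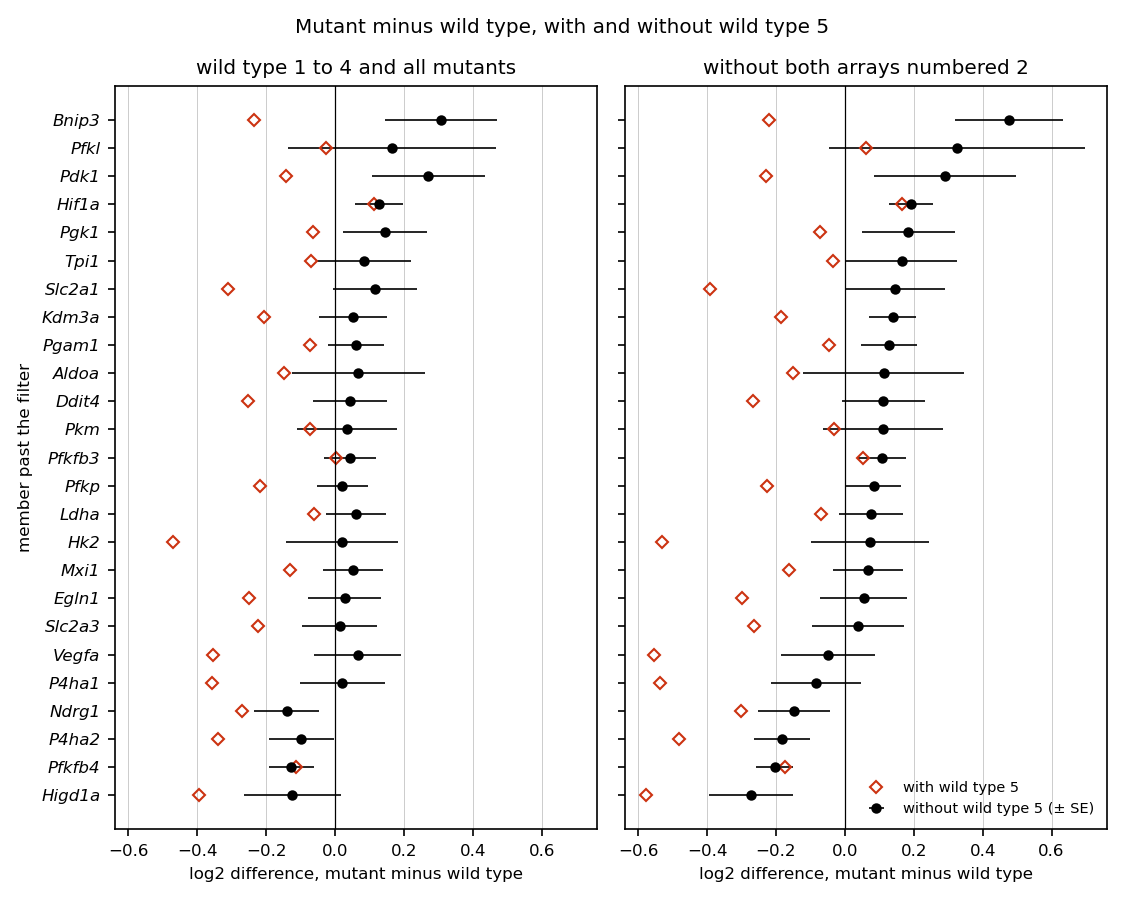
Log2 difference, mutant minus wild type, of the 25 members past the filter, without wild type 5 (filled circles, bars ± limma SE) and with it (open diamonds); the left panel has all other arrays and the right panel leaves out both arrays numbered 2. Without wild type 5 the values lie on both sides of 0, from -0.27 for Higd1a to 0.48 for Bnip3 in the right panel, and with it nearly all shift below 0.

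Including wild type 5 turned the direction of 19 of the 25 tested members in the comparison of the 9 arrays and of 16 in that of the 7. With all 10 arrays 23 of the 25 tested members were lower in the mutant group and 2 higher, where without wild type 5 there were 4 lower and 21 higher. None was called by limma, as was none of all probe sets (0%). With the 8 arrays left without number 2, 22 members were lower and 3 higher, where without wild type 5 there were 6 lower and 19 higher, and again none was called (smallest adjusted p 0.217, against 1.68% of all probe sets called). Hk2 went from 0.073 to -0.53 and Vegfa from -0.048 to -0.55. Within the pair numbered 5 itself, 30 of the 32 members were lower in the mutant array, with a median of -1.16 log2 units. In the pairs numbered 1 to 4 there were 20, 24, 6 and 15 such members, with medians of -0.034, -0.12, 0.19 and 0.015.

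Of the other genes of the pathway, few were called in the 7 arrays, and none in the 9. Among 30 tested other hypoxia targets 2 were called, both higher in the mutant arrays. Ak4, a mitochondrial adenylate kinase, differed by 1.28 (SE 0.17, limma adjusted p = 0.00978), with signals of 218, 202 and 268 in wild type 1, 3 and 4 and 448, 563, 522 and 722 in Dicer mutant 1, 3, 4 and 5, groups that do not overlap. In wild type 5 its signal was 1105, above all of these. Ero1a, an oxidase of protein folding in the endoplasmic reticulum, differed by 0.49 (SE 0.089, adjusted p = 0.0284), with 427, 416 and 465 against 561, 667, 584 and 649. Among 20 tested further genes of glycolysis and its branches 1 was called, Mpc1, a subunit of the mitochondrial pyruvate carrier, at -0.58 (SE 0.10, adjusted p = 0.0261). Among 15 tested oxygen-sensing genes 1 was called, Elob, a subunit of the VHL ubiquitin ligase complex, at -0.29 (SE 0.051, adjusted p = 0.0275). Of 25 oxidative phosphorylation subunits 2 were called, Ndufa2 and Sdhd, both lower. Of the remaining 12 lists 5 had 1 called gene, higher for the stress genes Dnajb9 and Hsph1 and lower for Jun, the cartilage collagen gene Col11a1 and the nerve gene Gap43, and 7 had none (limb mesenchyme, red cell, endothelial, white blood cell, surface ectoderm, skeletal muscle and DNA replication). Over all tested probe sets 3.31% were called in this comparison. With the replicate block the calls in these lists were 3 higher and 1 lower for the other hypoxia targets, 3 higher and 1 lower for the further glycolysis genes, 2 higher and 2 lower for the oxygen-sensing genes and 13 lower for the subunits, where 14.0% of all tested probe sets were called. The 4 of 30 hypoxia targets and 4 of 20 glycolysis genes are counts of a few genes beside that background, from which nothing is read about the lists. The medians of these lists in the 7 arrays were -0.026 for the hypoxia targets, -0.0071 for the further glycolysis genes, 0.0048 for the oxygen-sensing genes and -0.16 for the subunits, against -0.0094 for all tested probe sets.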

How the data were processed

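RNA of 10 limb bud samples was read on Affymetrix arrays, 1 per sample, after biotin labelling, per the labels' protocols. The authors deposited 1 linear intensity for each of 45101 probe sets per array. GCOS version 1.3 is named in the submitters' processing notes; the summarization and scaling target could not be learned from the labels, and detection calls were not used here. Array medians lay between 145.8 and 152.8, so no normalization was added. Work was on the log2 of the deposited intensity, floored at 1. After removal of 64 controls, probe sets whose mean log2 reached the median of that mean (a signal of 151) were kept. These 22515 were tested in limma 3.58.1 (R 4.3.3; lmFit, then eBayes with its trend option), and p-values were adjusted over all of them by Benjamini-Hochberg, with calls at 0.05. No member passed this filter only through wild type 5. Genes of the other lists were not checked for this, and those that passed count as tested. Hspa1b passed through wild type 5, with 6404 there against 103 to 152 in the other 9 arrays. Platform annotation gave 34958 probe sets 1 symbol, 932 several and 9211 none. Of the probe sets with 1 symbol, 34754 had a gene identifier that matched the RefSeq table of GRCm38.p6, and no symbol needed an update. Promoter sequences are RefSeq's.

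The members, lists, comparisons and alternatives were chosen with earlier results of these data known. Signals of every array are given for members called in either comparison, for the 10 with the largest difference of wild type 5, and for Hif1a, Slc2a1, Ldha, Vegfa and Gapdh; P4ha2 was added after its value with the block was seen. Of every other list up to 4 called genes were to be named, or else the 2 of smallest p; the second part was not carried out, and lists without a call are given by counts. Genes at least 1 log2 unit apart in wild type 5, and Prrx1, Twist1, Hk1 and Ldhb, were named after their values were seen. Promoters were to be printed for up to 6 members with a match and the largest difference of wild type 5; only matches before the most upstream start were used, a limit added after the sequences were seen, so Vegfa was passed over although it differed by more than Adm and Pdk1. On simulated data of the same size, 59 of 100 probe sets with a log2 change of 0.5 and 93 of 100 with a change of 1 were recovered in the 9 arrays, and 41 and 81 in the 7. The simulated noise was independent between probe sets, without differences shared across an array or between replicate numbers. The real arrays hold such differences, and the real fits called 0 probe sets in the 9 arrays and 745 in the 7. The simulated shares therefore do not give the power of the real comparisons. Same-numbered arrays were compared by the correlation of their deviations from the group means. In the 7 arrays it was 0.52, 0.567 and 0.777 for numbers 1, 3 and 4. The highest correlation with a different number was 0.513, 0.416 and 0.643. This was taken as a pairing found in the data, although for number 1 the values hardly differed. In the 9 arrays it was -0.307 for number 2, which showed no pairing. For number 3 it was 0.219 there, below the 0.528 with a different number. Numbers 1 and 4 had 0.394 and 0.727, above 0.331 and 0.617. The fits with the replicate block rest on this pairing. In the 9 arrays the block matched all same numbers, also both arrays numbered 2, which showed no pairing. No label says what a number marks.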

Additional observations from a re-analysis of the deposited data

Results flagged for a closer look

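In 18 members the gap between wild type 5 and the next wild type array, divided by the range of the 5 wild type arrays on the log2 scale, was above 0.71, the value used by Dixon's rule for 5 samples. The ratio was 0.899 for Slc2a1, 0.722 for Slc2a3, 0.859 for Hk2, 0.848 for Pfkp, 0.873 for Aldoc, 0.797 for Pgk1, 0.721 for Pgam1, 0.747 for Pdk1, 0.856 for Bnip3, 0.814 for Vegfa, 0.795 for P4ha1, 0.9 for P4ha2, 0.817 for Egln1, 0.858 for Adm, 0.846 for Ddit4, 0.743 for Mxi1, 0.945 for Kdm3a and 0.817 for Slc16a3. Wild type 5 was set apart, and the members chosen, on these same signals, so the outcome was fixed by that choice: the ratios are a description and not a test. The rate of about 1 in 20 groups that chance gives does not apply to them. None of the 32 groups of mutant arrays was above that value.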

How the results depend on the processing

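No member was called in the 9 arrays under any alternative run: quantile normalization, centring on medians, offsets of 16 and 64, no filter or one at the 70th percentile, array weights, no trend, the replicate block, the mean of all probe sets, wild type 5 included, and leaving out each array in turn. In the 7 arrays the count was 0 under these alternatives except with the replicate block (3) and with array weights (4). The median over the members was 0.051 in the 9 arrays and 0.099 in the 7. Leaving out single arrays gave -0.0016 to 0.096 and 0.027 to 0.15, the lowest in each case without Dicer mutant 3. Including wild type 5 gave -0.18 and -0.20. The median difference of wild type 5 (1.18) was 1.22 with quantile normalization, 1.13 and 1.07 with offsets of 16 and 64, and 1.21 with the mean of all probe sets, changes larger than the SD of 0.018 between the other wild type arrays.

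With wild type 5 included, 19 of the 25 tested members turned sign in the comparison of the 9 arrays and 16 in that of the 7, none of them called. Single members were followed under every alternative for 16 genes: those with signals of every array, P4ha2, Pfkfb4 and Higd1a. Of these, with wild type 5 included, the tested ones that turned sign became -0.31 for Slc2a1, -0.47 for Hk2, -0.062 for Ldha, -0.14 for Pdk1, -0.24 for Bnip3, -0.35 for Vegfa, -0.36 for P4ha1 and -0.25 for Ddit4 in the comparison of the 9 arrays, and -0.39 for Slc2a1, -0.53 for Hk2, -0.070 for Ldha, -0.23 for Pdk1, -0.22 for Bnip3 and -0.27 for Ddit4 in that of the 7. Adm and Slc16a3, not tested, turned to -0.31 and -0.10 (9) and to -0.38 and -0.061 (7). With the replicate block the values that turned were -0.12 for Hk2 and -0.047 for P4ha1 (9 arrays) and -0.079 for Hk2 (7 arrays), and with array weights -0.021 for Vegfa and -0.024 for Ddit4 (9) and 0.00067 for P4ha1 and -0.041 for Ddit4 (7). The mean of all probe sets gave -0.055 for P4ha1 (9). Leaving out single arrays gave -0.12 to 0.11 for Hk2, -0.0071 to 0.11 for Ldha, -0.0071 to 0.15 for Vegfa, -0.057 to 0.088 for P4ha1 and -0.026 to 0.086 for Ddit4 (9 arrays) and -0.079 to 0.16 for Hk2 and -0.14 to 0.057 for Vegfa (7 arrays). Without wild type 4 the untested Ankrd37 was 0.077 (9), and the untested Gapdh, at 0.0022, fell on either side of 0. The cause was not tested. Without detection calls the distance of dim members such as Aldoc, Adm and Ankrd37 from background is unknown, and precision is limited by how few arrays there are.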

Other observations

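Immediate early genes, which respond within minutes to handling and growth signals, did not move 1 way in wild type 5. Of 15 genes, 3 stood at least 1 log2 unit above the other wild type arrays: Fos (268 against 103 to 121 in the other 9 arrays), Egr1 (341 against 110.0 to 132) and Ier3 (440.4 against 89.9 to 129.5). Another 2 stood at least 1 unit below, Jund (1086 against 1190.2 to 2809.8) and Btg2 (137 against 253 to 617). Jund was also low in the other arrays numbered 4 and 5 (1190.2 to 1492), against 2042 to 2809.8 in those numbered 1 to 3. Among 20 genes of the endoplasmic reticulum and integrated stress responses, which share Ddit4 and Vegfa as known targets with hypoxia, 1 stood 1 unit or more higher, the lipoprotein receptor gene Vldlr (462 against 178 to 204), and the median was 0.0092. The 15 DNA replication genes had a median of -0.17, and their summed signal of 31442 lay below the 32103 to 37364 of the other 9 arrays.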
